A study of Mus musculus with 70 samples.

Results

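The interleukin-6 (IL-6) family was followed through 8 genes: the ligands Il6, Lif and Osm, the receptor subunits Il6ra, Osmr and Il6st, the transcription factor Stat3 and the feedback inhibitor Socs3. The members were taken by gene symbol and are 8 of the 55487 named lines of each count table. The data are 70 libraries, each made from the CD45- or the CD45+ cells of a B16F10 tumor, a mouse melanoma line grown under the skin of both flanks of male and female C57BL/6 mice. Control tumors received sham ablation, histotripsy-treated tumors received partial ablation by focused ultrasound that breaks tissue mechanically, and histotripsy-abscopal tumors were the untreated tumors on the flank opposite an ablated one. On day 3 after ablation, CD45- libraries came from 4 control, 7 treated and 7 abscopal tumors and CD45+ libraries from 4, 6 and 7. The day 7 libraries, in the same order, numbered 11, 3 and 4 for CD45- and 10, 3 and 4 for CD45+ cells. The sex of the mouse behind a library is not given, treated and abscopal tumors can come from the same mouse, and each fraction on each day is a table of its own, so that fraction or day and table cannot be told apart.

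IL-6, leukemia inhibitory factor (LIF) and oncostatin M (OSM) are cytokines that signal through gp130, the shared receptor subunit encoded by Il6st. Each uses gp130 with a further subunit, such as the IL-6 receptor encoded by Il6ra or the OSM receptor encoded by Osmr, and the bound complex activates Janus kinases, which phosphorylate STAT3. STAT3 then drives its target genes, among them Socs3, whose product inhibits the same receptor complex. In tumors these cytokines are made by infiltrating myeloid cells and by fibroblasts, and they act on tumor cells, stroma and leukocytes alike.

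The gene sequences are those of GRCm38 with the GENCODE M21 annotation, in which Il6 is at chr5:30013114-30019981, Lif at chr11:4257557-4272514, Osm at chr11:4236420-4241026, Il6ra at chr3:89864059-89913196, Osmr at chr15:6813577-6874969, Il6st at chr13:112464070-112510086, Stat3 at chr11:100885098-100939540 and Socs3 at chr11:117966079-117970047. All are protein coding. Il6ra overlaps Gm42809 and Stat3 overlaps Stat5a on the opposite strand, and since the strand setting of the counting is not given in the sources used here, counts of Il6ra and Stat3 are uncertain to that extent. The letters TTCNNNGAA, a form of the site that STAT dimers are known to bind, were searched on both strands in 300 bases around each RefSeq gene start of GRCm38.p6, 250 before it and 50 after it. They were found in 1 of the 7 members with a promoter in the RefSeq table, namely Socs3, against 8.3% of all 32851 promoters. That window is shown because Socs3 is the member known as a direct STAT3 target. It lies on the minus strand at chr11:117969502-117969530, within the Socs3 gene of the GENCODE annotation and outside its exons, and the match, in capitals, begins 154 bases before the RefSeq start.
Socs3: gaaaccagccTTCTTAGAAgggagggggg
The match is a description of the sequence and not a measured site.

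Library depth was between 887798 and 3820705 counts. Ptprc, which encodes CD45, had 0 to 3 counts in each CD45- library and 929 to 2916 in each CD45+ library. The summed level of 7 melanoma markers was 24598 to 38054 CPM (counts scaled to 1000000 per library) in CD45- cells and 93.1 to 2264 CPM in CD45+ cells. The CPM values carry the factors of the trimmed mean of M values (TMM) method within each table, and a gene was called where edgeR's quasi-likelihood test gave a Benjamini-Hochberg adjusted p under 0.05 over all genes tested. Fewer cells of a type and less RNA per cell cannot be told apart in sorted bulk RNA.

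The family was divided between the fractions. Osm, Il6ra, Stat3 and Socs3 were higher in CD45+ than in CD45- cells in each of the 3 tumor groups on both days, with no overlap between libraries of the fractions in any of these 6 comparisons. All genes without such overlap made up 62.5%, 53.6% and 52.8% in control, treated and abscopal tumors on day 3 and 47.7%, 70.3% and 61% on day 7. Separation of the fractions was thus common among all genes and is not particular to the family. Il6 was also called higher in CD45+ cells in all 6, but its ranges overlapped in treated tumors on day 3 and in abscopal tumors on day 7. Of the 7 members tested on day 3, 5 were called higher in CD45+ cells in each group, where 34.5%, 39.9% and 39.8% of all genes were higher in control, treated and abscopal tumors. Of the 8 tested on day 7, 6 were higher in each group, where 41.7%, 34% and 35.7% of all genes were higher. The sixth member was Lif, which was too low to be tested on day 3. Scaled by library totals instead of TMM, all genes had a median log2 difference between the fractions of -0.13 to -0.39, and in treated tumors on day 3 the split of 4948 higher and 4587 lower genes became 3814 and 6088. The calls of Osm, Il6ra, Stat3 and Socs3 held on that scale in all 6.

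Osm was nearly absent from CD45- cells. It had 0 counts in 31 of 36 CD45- libraries and at most 3 in the others, against 166 to 812 counts in each CD45+ library. Summed over libraries and divided by library totals, the ratio of CD45+ to CD45- levels was 1788 (95% interval 320 to 70672, counting error only) in control tumors on day 3, from 1441 counts against 1, and 862 (294 to 4184) in abscopal tumors on day 7, from 1482 against 3. With no count in CD45- cells, taking 3 counts over the group as the floor, Osm was at least 998-fold higher in CD45+ cells of abscopal tumors on day 3 and at least 655-fold higher in those of treated tumors on day 7. Osm RNA was thus found almost wholly in the leukocyte fraction in every group.

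Lif, a cytokine of the same subfamily as OSM, was low in both fractions. CD45- libraries held 0 to 3 counts, with 0 in 31 of 36, and CD45+ libraries held 0 to 13, with 0 in 2 of 34. On day 7 the log2 fold change of CD45+ over CD45- cells was 5.11 ± 0.64 (SE; edgeR quasi-likelihood adjusted p = 5.62e-09) in control tumors, from 54 counts against 1. The ratio of summed levels had a counting interval of 13.6 to 3175, which is the precision that a single CD45- count allows.

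Il6, the ligand that gives the family its name, differed between the fractions by amounts that varied widely among the groups. CD45+ libraries held 4 to 51 counts and CD45- libraries 0 to 48, with 0 in 14 of 36. In control tumors on day 3 the summed level was 36.8-fold higher in CD45+ cells (12.2 to 182), from 89 counts against 3. In treated tumors on day 3 it was 2.04-fold higher (1.52 to 2.75), from 98 counts against 91, and in abscopal tumors 14.3-fold higher (8.10 to 27.6), from 136 against 13. The smaller ratio in treated tumors went with more Il6 counts in CD45- cells, while its CD45+ libraries lay at 5.10 to 19.1 CPM in treated and 5.35 to 16.7 CPM in control tumors. On day 7 the ratios were 26.0 (14.5 to 51.0), 5.05 (3.15 to 8.45) and 4.41 (2.54 to 7.94) in control, treated and abscopal tumors. Without CD45- treated replicate 3 the ratio in treated tumors was 4.07 (2.82 to 5.97) on day 3 and 78.0 (13.7 to 3116) on day 7, the latter from 92 counts against 1, while the day 7 value was 3.01 without CD45- treated replicate 1 and 3.29 without replicate 2. The day 7 ratio in abscopal tumors was 15.0 (5.48 to 57.2) without CD45- replicate 1 and 2.91 without CD45+ replicate 3, and the day 3 ratio in control tumors was 24.3 without CD45- replicate 3. The call in treated tumors on day 3 (log2 fold change 1.37 ± 0.58, edgeR adjusted p = 0.0304) was lost with DESeq2 (adjusted p = 0.0818), with scaling by library totals (0.95, adjusted p = 0.118) and without any 1 of 4 libraries, CD45+ treated replicate 3 and CD45- treated replicates 4, 5 and 7, while it was 2.23 without CD45- treated replicate 3. The fit in control tumors on day 3 (5.13) gave 7.83 without CD45- control replicate 2, the only CD45- control library of day 3 with Il6 counts. The call in abscopal tumors on day 7 (2.42 ± 0.73, adjusted p = 0.00351) was lost without CD45+ abscopal replicate 3 (1.79, adjusted p = 0.0544). Without CD45- treated replicate 3 the day 7 log2 fold change in treated tumors was 6.12 in place of 2.38, and without CD45- abscopal replicate 1 that in abscopal tumors was 4.01.

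Among the receptors, Il6ra, the subunit that binds IL-6 itself, had 57 to 257 counts in each CD45+ library and 0 to 14 in each CD45- library. Its summed level was 55.2-fold (38.1 to 82.9) to 137-fold (82.6 to 245) higher in CD45+ cells over the 6 comparisons. Osmr was on the other side: it had 1 to 31 counts in CD45- libraries and 0 to 9 in CD45+ libraries. Osmr was called lower in CD45+ cells in 2 of 6 comparisons, with a log2 fold change of -1.12 ± 0.45 (SE; edgeR adjusted p = 0.0230) in control tumors and -2.37 ± 0.91 (adjusted p = 0.0217) in treated tumors, both on day 7, where 38.6% and 31.6% of all genes were lower. The call in treated tumors rested on 3 counts against 22, all 3 in CD45+ treated replicate 1, and was lost without CD45+ treated replicate 3 (-1.72, adjusted p = 0.126) and without CD45- treated replicate 3 (-1.77, adjusted p = 0.122). In treated tumors on day 3 Osmr missed the threshold (-1.04 ± 0.49, adjusted p = 0.0534) and passed it with library totals (-1.43) and with no filter on low counts (-1.15). The OSM ligand and its own receptor subunit thus had their higher levels in opposite fractions wherever a difference was called.

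Il6st, the shared gp130 subunit, was present in both fractions, at 38.3 to 107 CPM in CD45- and 33.2 to 67.7 CPM in CD45+ libraries. It was called different between the fractions in 1 of 6 comparisons, treated tumors on day 3, where its log2 fold change was -0.52 ± 0.15 (SE; edgeR adjusted p = 0.00190) and its libraries did not overlap. There, 37% of all genes were lower in CD45+ cells. Whether this differed from the control tumors was tested as an interaction of fraction and treatment, which gave -0.49 ± 0.24 (adjusted p = 0.294).

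Stat3 was detected in all libraries, at 214 to 347 CPM in CD45- and 588 to 1049 CPM in CD45+ cells. Its log2 fold changes between the fractions were 1.81, 1.76 and 1.82 in control, treated and abscopal tumors on day 3 and 1.66, 1.70 and 1.50 on day 7, each with an SE of at most 0.16. Socs3, the inhibitor that STAT3 induces, was at 7.80 to 70.1 CPM in CD45- and 70.7 to 394 CPM in CD45+ libraries. Its log2 fold changes between the fractions were 3.54 ± 0.46, 3.34 ± 0.34 and 3.79 ± 0.36 (SE) on day 3 and 3.50 ± 0.18, 3.06 ± 0.33 and 2.53 ± 0.27 on day 7, in the same order of groups. The lowest of these belonged to abscopal tumors on day 7, in which CD45- cells had their highest group mean of Socs3.

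**Figure D1:**
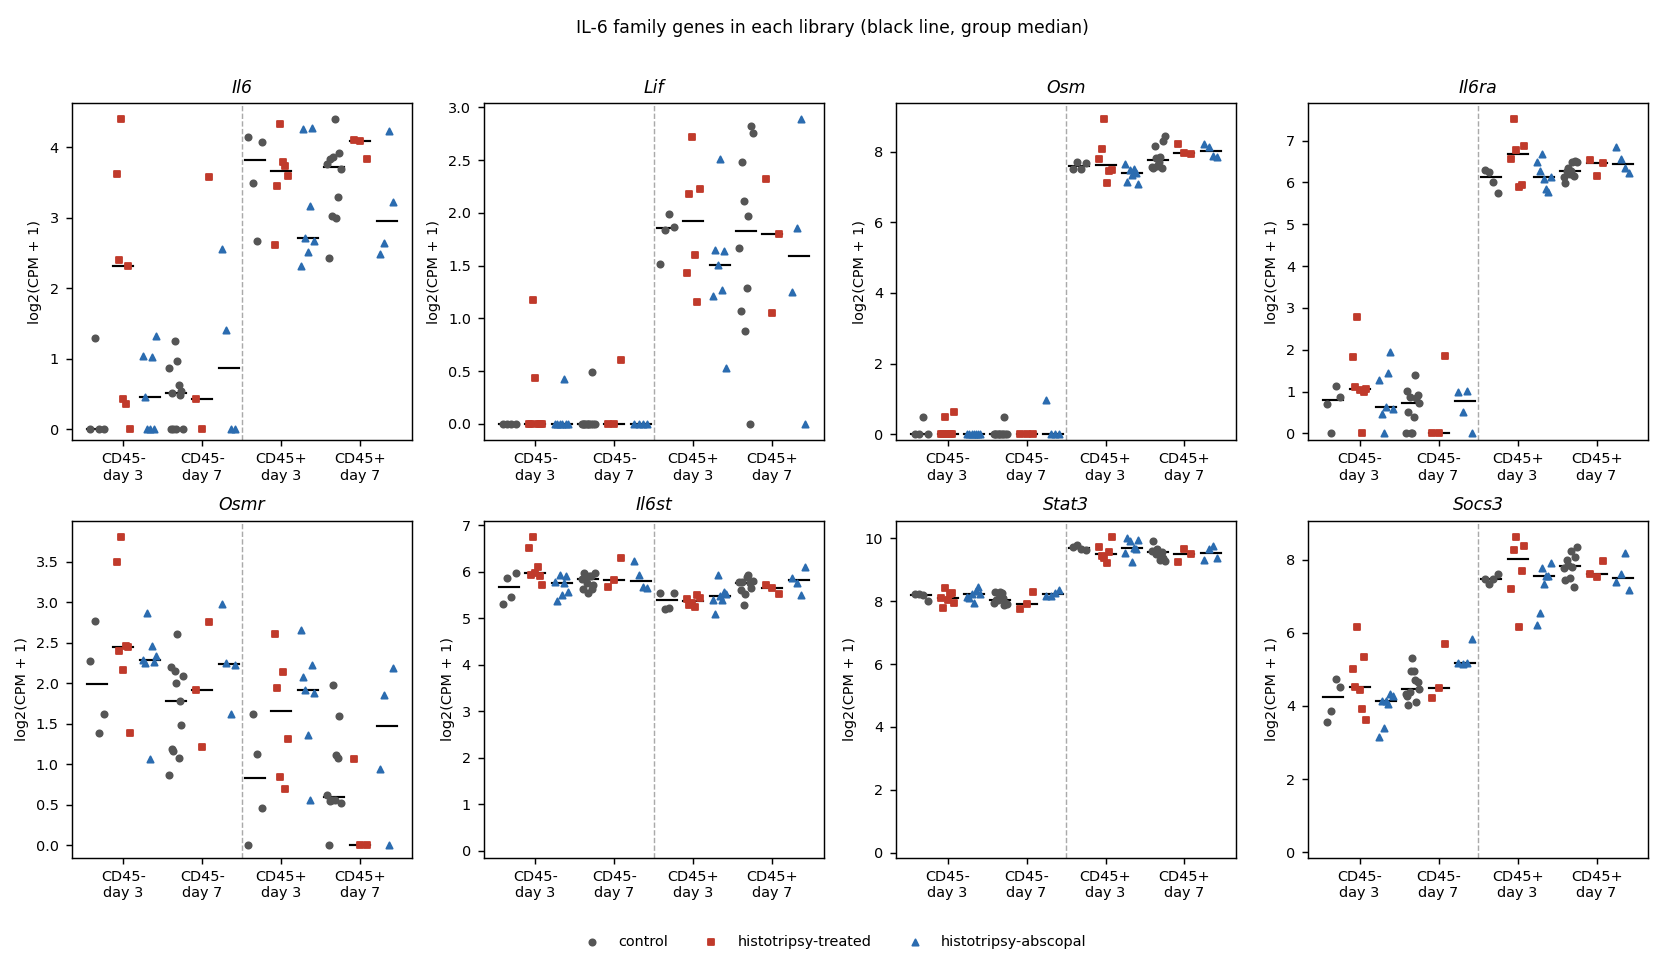
Level of each IL-6 family gene as log2(CPM + 1), vertical axis, in each library, by sorted fraction and day on the horizontal axis. Circles are control, squares histotripsy-treated and triangles histotripsy-abscopal tumors, and black lines are group medians. Osm, Il6ra, Stat3 and Socs3 lie higher in all CD45+ libraries, and Il6 in CD45- cells is spread from 0 to 20.2 CPM in treated tumors on day 3.

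**Figure D2:**
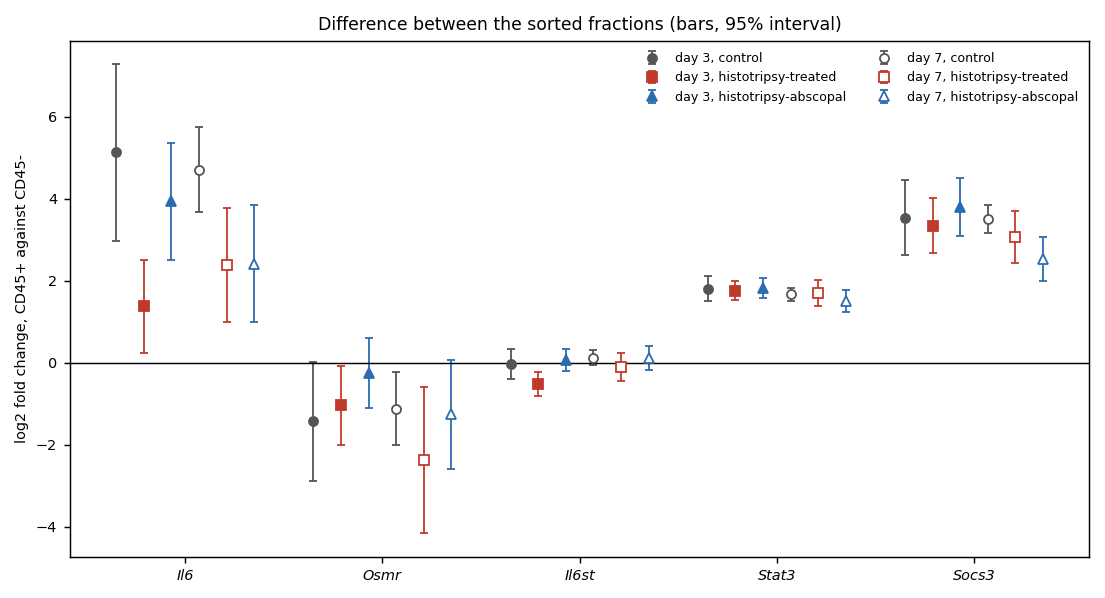
Log2 fold change of CD45+ over CD45- cells with 95% intervals (edgeR joint fit of both fractions) for Il6, Osmr, Il6st, Stat3 and Socs3, by group, with filled symbols for day 3 and open symbols for day 7. Il6 runs from 1.37 in treated tumors on day 3 to 5.13 in control tumors, while Stat3 stays between 1.50 and 1.82.

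The effect of ablation was then compared within each fraction. No member was called in any of the 12 comparisons among control, treated and abscopal tumors, and none had groups of libraries that did not overlap. Both edgeR and DESeq2 gave 0 members called in each. The share of all genes whose groups did not overlap was, for treated against control, abscopal against control and treated against abscopal in that order, 1.54%, 0.842% and 0.458% in CD45- cells on day 3, 0.537%, 0.318% and 6.16% in CD45- cells on day 7, 6.77%, 1.34% and 1.33% in CD45+ cells on day 3 and 0.518%, 0.305% and 4.15% in CD45+ cells on day 7. In CD45- cells the share of all genes called was, in the same order, 0.0916%, 0% and 0.147% on day 3, and 0%, 0.291% and 0% on day 7. In CD45+ cells it was 7.8%, 0% and 5.44% on day 3 and 0% in all 3 comparisons on day 7. CD45- cells had 5 members tested on day 3 and 4 on day 7, and CD45+ cells had 6 and 7. At an unadjusted p under 0.05 there were 2 members for treated against control and 3 for treated against abscopal in CD45- cells on day 3, where 10.6% and 13.5% of all genes were under it. There was 1 for abscopal against control in CD45- cells on day 7, against 9.56% of all genes. In CD45+ cells on day 3 there were 1 and 2 for treated against control and treated against abscopal, against 23.9% and 18.7% of all genes. The other 7 comparisons had 0, where 2.68% to 7.76% of all genes were under that p.

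In CD45- cells on day 3, Il6 gave the largest difference among the members tested, and it was carried by some of the treated tumors. The filter on low counts admitted Il6 only through treated libraries, since control and abscopal libraries reached at most 1.46 and 1.51 CPM. Its tests in the filtered fit thus follow a selection by the group in which it was high. Il6 was at 0, 1.46, 0 and 0 CPM in the control libraries. In the 7 treated libraries it ran from 0 through a median of 3.97 to 20.2 CPM, and in the 7 abscopal libraries from 0 through 0.374 to 1.51 CPM. Of the treated libraries, 4 were above every control and every abscopal library, at 3.97, 4.28, 11.3 and 20.2 CPM, while the other 3 were at 0 to 0.349 CPM and overlapped both groups. Summed over libraries, Il6 was 15.0-fold (4.97 to 74.1, counting error only) higher in treated than in control tumors, from 91 counts against 3, and 7.43-fold (4.13 to 14.5) higher than in abscopal tumors, from 91 against 13. Treated replicate 3 gave 48 of the 91 counts, and without it the ratios were 8.22 (2.63 to 41.4) and 4.07 (2.15 to 8.26). All 3 control counts were in replicate 2. The spread between libraries left both differences short of the threshold, with a log2 fold change of 3.80 ± 1.30 (SE; edgeR adjusted p = 0.281) against control and 2.93 ± 0.89 (adjusted p = 0.139) against abscopal tumors. With no filter on low counts both passed (adjusted p = 0.00884 and 0.00177). Abscopal and control tumors differed by 0.87 on the log2 scale, from 13 counts against 3, a ratio of summed levels of 2.02 (0.555 to 11).

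Socs3 was also highest on average in the treated tumors among these CD45- cells, with abscopal tumors lowest. It was at 10.9, 13.6, 25.8 and 22.1 CPM in controls, from 11.3 through 21.8 to 70.1 CPM in treated tumors and from 7.80 through 16.5 to 19.0 CPM in abscopal tumors. The 3 highest treated libraries, at 31.3, 39.2 and 70.1 CPM, were above all controls, and the rest lay within the range of the controls. The log2 fold change was 0.68 ± 0.39 (SE; edgeR adjusted p = 0.586) for treated against control, 1.03 ± 0.33 (adjusted p = 0.154) for treated against abscopal and -0.35 for abscopal against control. Without treated replicate 3 the first 2 were 0.29 and 0.64. Il6st was at 38.3, 56.9, 43.1 and 62.2 CPM in controls, from 51.8 through 62.2 to 107 CPM in treated tumors and from 40.4 through 53.1 to 59.7 CPM in abscopal tumors. Its log2 fold changes were 0.50 ± 0.18 (adjusted p = 0.320) against control and 0.49 ± 0.15 (adjusted p = 0.146) against abscopal tumors. Osmr was at 3.83, 5.84, 1.61 and 2.09 CPM in controls and from 1.62 through 4.47 to 13.0 CPM in treated tumors, a log2 fold change of 0.85 ± 0.49 (adjusted p = 0.580). Stat3 had a log2 fold change within -0.24 and 0.14 in all 6 comparisons of CD45- cells, with 95% intervals that reached from -0.50 to 0.33. The ligand, both signaling receptor subunits and the feedback inhibitor were therefore each highest on average in treated tumors, and none passed the test as specified. With no filter on low counts Socs3 (adjusted p = 0.00315) and Il6st (adjusted p = 0.0296) passed for treated against abscopal tumors.

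A single treated library on day 3 was highest for most of the family. Replicate 3 of that group held the highest value of 7 of the 8 members, all but Osm, and also the highest summed level of 7 fibroblast markers (Col1a1, Col1a2, Col3a1, Dcn, Lum, Pdgfra and Pdgfrb), at 14047 CPM. The next library had 6029 CPM. Fibroblast markers summed to 17.5 to 1088 CPM in controls, 54.8 to 14047 CPM in treated and 149 to 805 CPM in abscopal tumors on day 3, and none of the 7 was at 0 in all libraries of a group. This was not so in each group: the library with the highest fibroblast sum held the highest value of 0 members in day 3 abscopal tumors and day 7 controls, and of 3 (Il6, Osmr and Stat3) in day 3 controls. On day 7, treated replicate 3 again held both the highest values of the same 7 members and the highest fibroblast sum, at 4017 CPM against 217 CPM in the next library. The part of the fibroblast markers in the levels of Il6, Osmr, Il6st and Socs3 was not tested.

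**Figure D3:**
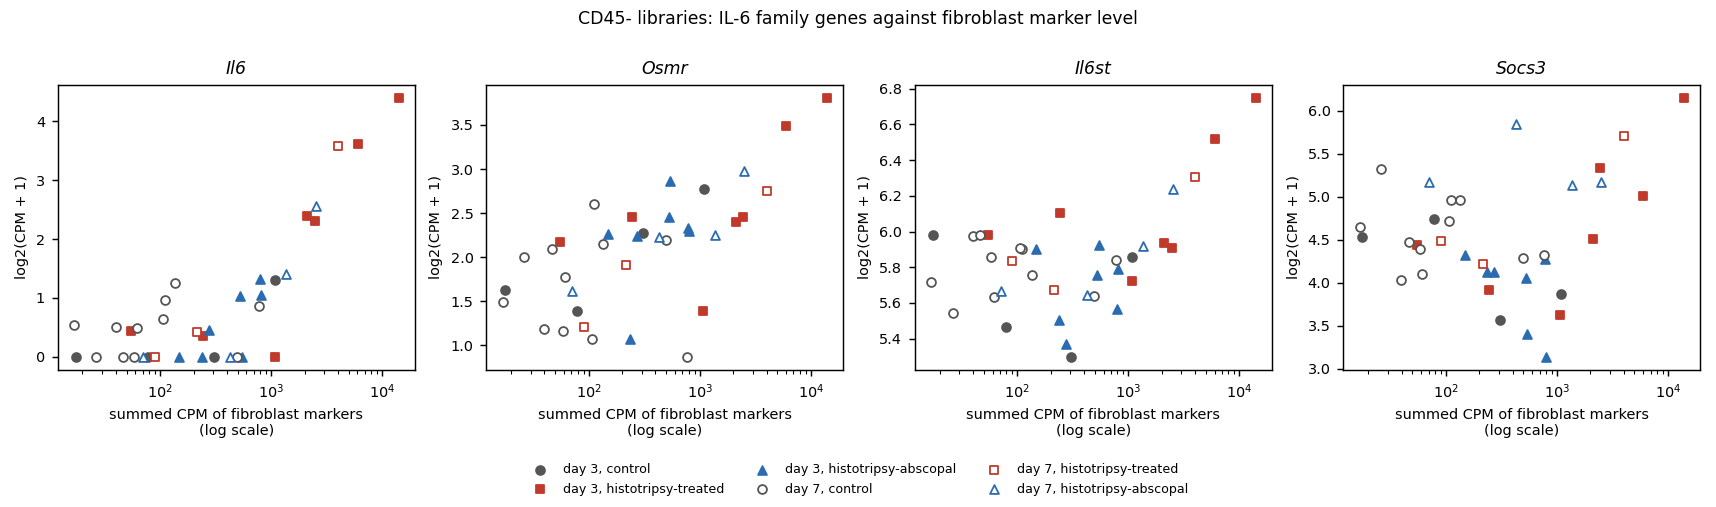
Log2(CPM + 1) of Il6, Osmr, Il6st and Socs3, vertical axes, against the summed CPM of 7 fibroblast markers on a log axis, in each CD45- library. Filled symbols are day 3 and open symbols day 7, and the library with the highest fibroblast sum, 14047 CPM, is also the highest in all 4 panels.

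On day 7 in CD45- cells the treated tumors were split. Il6 was at 0.345, 0 and 11 CPM in the 3 treated libraries, and Socs3 at 17.6, 21.4 and 51.3 CPM, with the high value of each in replicate 3. Socs3 differed from control by 0.29 on the log2 scale (edgeR adjusted p = 0.954), and by -0.30 without treated replicate 3. Summed Il6 was 6.77-fold (3.21 to 15.0) higher in treated than in control tumors, from 22 counts against 12, of which replicate 3 alone gave 21. Without that library the ratio was 0.421 (0.00985 to 2.85), from 1 count against 12, and without treated replicate 1 it was 10.9. Il6 was too low for the test on day 7.

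In CD45- cells of abscopal tumors on day 7, Socs3 lay high in each library. The 11 control libraries ran from 15.4 through 21.3 to 38.9 CPM, and the 4 abscopal libraries were at 35.1, 34.2, 34.9 and 56.4 CPM. All 4 abscopal values were above the control median, and 3 of them lay within the control range. The log2 fold change was 0.72 ± 0.23 (SE; edgeR adjusted p = 0.230), and it passed the threshold with no filter on low counts (0.73, adjusted p = 0.00362). Since abscopal Socs3 was not higher than control on day 3 (-0.35), an interaction of group and day was fitted, and was 1.08 ± 0.48 (adjusted p = 0.680), with 0.00866% of all genes called. Treated and abscopal tumors differed by -0.43 (adjusted p = 0.811). Osmr was at 6.88, 3.75, 2.07 and 3.68 CPM in abscopal tumors and 0.829 to 5.08 CPM in controls, a log2 difference of 0.66 (adjusted p = 0.625). Abscopal replicate 1 held the highest Il6, Osm, Osmr and Il6st of its group and the highest fibroblast sum, 2516 CPM, but not the highest Socs3, which was in replicate 4.

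CD45+ cells on day 3 were the setting in which ablation changed the most genes, 801 in treated against control tumors, of which 638 were higher and 163 lower. Scaled by library totals the split was 413 higher and 650 lower, and the median of all genes was -0.22. None of the 6 members tested was among the 801. Il6ra was at 77.8, 74.9, 63.0 and 52.9 CPM in controls, from 58.4 through 101 to 182 CPM in treated and from 53.7 through 68.7 to 101 CPM in abscopal tumors. Its log2 fold change was 0.62 ± 0.26 (SE; edgeR adjusted p = 0.150) against control and 0.50 ± 0.22 (adjusted p = 0.220) against abscopal tumors. Treated replicate 2 had the highest Il6ra, and without it the first value was 0.38.

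Osm, the ligand found almost wholly in CD45+ cells, was at 182, 208, 181 and 203 CPM in controls, from 136 through 197 to 482 CPM in treated and from 133 through 167 to 198 CPM in abscopal tumors. The log2 fold change was 0.32 (edgeR adjusted p = 0.462) against control and 0.56 ± 0.21 (SE; adjusted p = 0.145) against abscopal tumors. A single library, treated replicate 3, decided the first value, which was 0.0041 without it, and the second fell to 0.24. Leaving out treated replicate 4 instead gave 0.70 (adjusted p = 0.0446) for treated against abscopal tumors. Socs3 was at 178, 161, 178 and 194 CPM in controls, from 70.7 through 258 to 394 CPM in treated and from 72.7 through 187 to 240 CPM in abscopal tumors. Treated libraries lay both below and above all controls, and the log2 fold change was 0.45 (adjusted p = 0.480) against control and 0.55 ± 0.30 (adjusted p = 0.357) against abscopal tumors. Without treated replicate 3 these were 0.25 and 0.35. Il6 was at 5.35 to 16.7 CPM in controls, 5.10 to 19.1 CPM in treated and 3.97 to 18.4 CPM in abscopal tumors, with groups that overlapped throughout.

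Neutrophil markers moved with the CD45+ treated group. The summed level of 8 neutrophil markers (S100a8, S100a9, Csf3r, Cxcr2, Retnlg, G0s2, Mmp9 and Ly6g) was 350 to 2556 CPM in controls, 1284 to 35812 CPM in treated and 810 to 2698 CPM in abscopal tumors on day 3, with no marker at 0 throughout a group. CD45+ treated replicate 3 had the highest sum, against 8887 CPM in the next library, and also the highest Il6, Lif, Osm and Socs3 of the group. The labels do not say whether it came from the same tumor as CD45- treated replicate 3. Summed T cell markers (6 genes) were 688 to 1119 CPM in controls and 189 to 679 CPM in treated tumors. The part of these cell types in the levels of Osm, Il6ra and Socs3 was not tested.

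**Figure D4:**
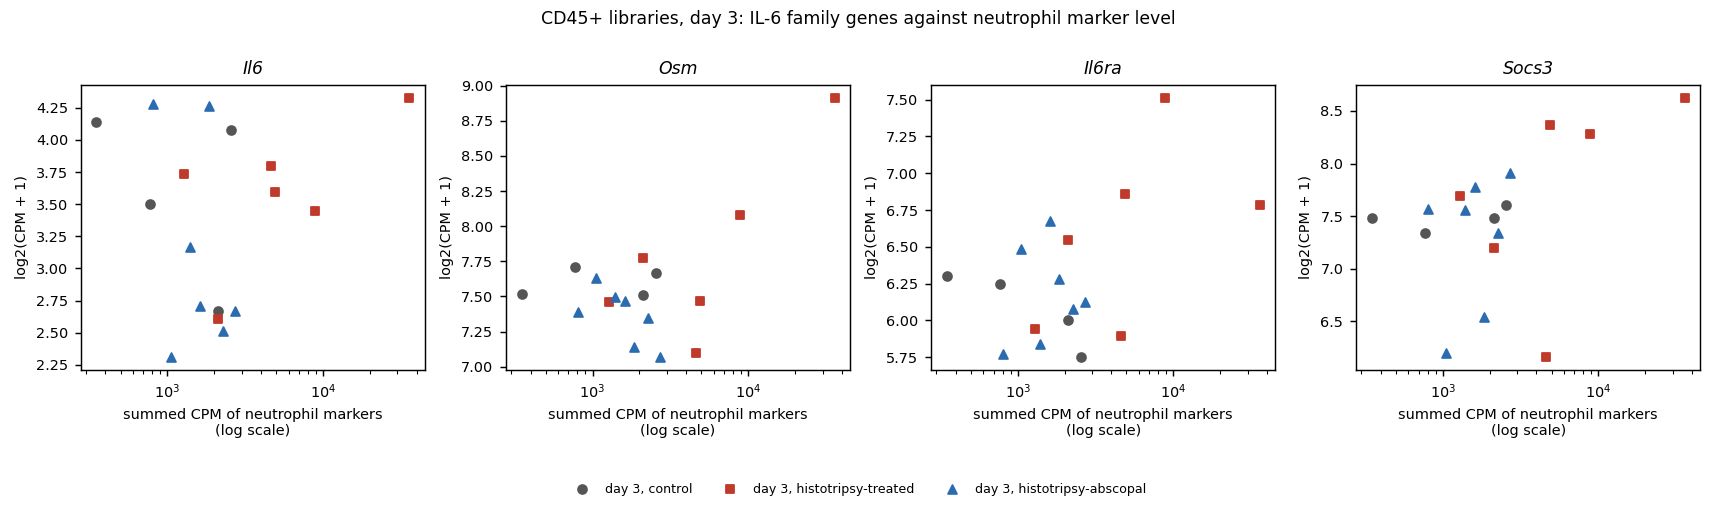
Log2(CPM + 1) of Il6, Osm, Il6ra and Socs3, vertical axes, against the summed CPM of 8 neutrophil markers on a log axis, in each CD45+ library of day 3. The treated library with a neutrophil sum of 35812 CPM has the highest Osm, at 482 CPM, and the highest Socs3, at 394 CPM.

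The interaction tests compared the effect of ablation between fractions and between days. For treated against control tumors on day 3, the log2 effect on Il6 in CD45+ cells minus that in CD45- cells was -3.75 ± 1.33 (SE; edgeR adjusted p = 0.138), and no member was called where 1.91% of all genes were (175 higher and 62 lower, or 75 and 167 scaled by library totals). On day 7 neither a member nor any other gene was called (0%). Between the days, the effect in CD45+ treated tumors on day 7 minus that on day 3 was -0.50 for Il6ra (adjusted p = 0.441) and -0.58 for Socs3 (adjusted p = 0.556), where 2.7% of all genes were called (29 higher and 275 lower, or 74 and 161 scaled by library totals). The other 3 interactions of day had 0 members called, with 0% to 0.00866% of genes. DESeq2 also called 0 members in the 6 interactions, and at an unadjusted p under 0.05 edgeR gave 2 members for fraction on day 3, 1 for fraction on day 7, 1 for day in CD45- abscopal tumors and 0 in the other 3. Of all genes, 16.1%, 4.84% and 6.87% were under that p in the first 3 of these. In the other 3, those of day, the share was 6.02% in CD45- treated, 15.8% in CD45+ treated and 6.51% in CD45+ abscopal tumors.

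The wider pathway was read from 38 further genes, in lists of gp130 ligands, gp130 receptors, Janus kinases, STAT3 regulators and STAT3 targets. The lists were chosen with earlier results of these data known, so their shares and medians are a description and not independent support. In CD45+ cells on day 3, 8 of the 29 tested were higher in treated than in control tumors and 0 lower, against 6.22% of all genes called higher. They were 7 of the 16 STAT3 targets and Lifr, the LIF receptor subunit, while 0 of the Janus kinases and of the STAT3 regulators passed. The median log2 fold change of the STAT3 targets was 0.69, against -0.01 over all genes tested. Against abscopal tumors 6 of the 16 targets were higher and 0 lower, where 4.87% of all genes were higher, with a median of 0.58 against -0.03. Abscopal and control tumors had 0 of 16 targets called by edgeR, 0 at an unadjusted p under 0.05 and 0 by DESeq2, and a median of 0.10.

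The called targets included acute-phase and antibacterial proteins that myeloid cells make. Saa3, an acute-phase serum amyloid, was at 5.56 to 15.5 CPM in controls and 24.1 to 260 CPM in treated tumors, with no overlap, and its log2 fold change was 3.41 ± 0.66 (SE; edgeR adjusted p = 0.00398). Lcn2, an iron-binding protein of neutrophil granules, ran from 2.78 to 22.6 CPM in controls and from 4.32 to 432 CPM in treated tumors, and its log2 difference was 3.48 ± 0.95 (adjusted p = 0.0268). Lrg1, a secreted glycoprotein, rose by 2.11 ± 0.47 (adjusted p = 0.00908). Of the transcription factors and survival genes, Cebpd rose by 1.23 ± 0.32 (adjusted p = 0.0214), Cebpb by 0.69 ± 0.20 (adjusted p = 0.0338) and Bcl2l1, which encodes the anti-apoptotic BCL-XL, by 0.74 ± 0.18 (adjusted p = 0.0146). The seventh, named after its values were seen as was Lifr, was Mcl1, a further anti-apoptotic gene. Against abscopal tumors the called targets were Cebpd (1.39), Saa3 (2.16), Lrg1 (1.60), Lcn2 (3.16), Bcl2l1 (0.57) and Timp1 (1.25). The 2 comparisons share the treated libraries. Saa3 and Lrg1 kept their calls against control without any 1 library, while those of Bcl2l1, Cebpd, Lcn2 and Cebpb were lost without 3, 4, 6 and 6 of the 17 libraries. For Lcn2 these were each control library and treated replicates 3 (2.83, adjusted p = 0.0640) and 6, for Bcl2l1 control replicates 2, 3 and 4, for Cebpd control replicates 1, 2 and 3 and treated replicate 2, and for Cebpb each control library and treated replicates 2 and 3. With library totals the calls of Bcl2l1 (0.51, adjusted p = 0.0546) and Cebpb (0.44, adjusted p = 0.0920) against control were lost, as was that of Cebpb with no filter on low counts (adjusted p = 0.0571). In a fit of only the groups compared, Cebpd (adjusted p = 0.0513), Lcn2 (0.0768) and Cebpb (0.0985) missed the threshold. Against abscopal tumors Bcl2l1 and Timp1 were lost with library totals (0.43 and 1.07, adjusted p = 0.0925 and 0.0719) and in a fit of only the groups compared (adjusted p = 0.0509 and 0.0677). Without treated replicate 3, Lrg1 (1.05), Lcn2 (2.52), Bcl2l1 (0.51) and Timp1 (0.86) were all lost against abscopal tumors, with adjusted p = 0.0587, 0.0587, 0.0742 and 0.209, and Bcl2l1 was also lost without 4 and Timp1 without 10 further libraries. Cebpd and Saa3 kept their calls against abscopal tumors without any 1 library. Neutrophil markers were highest in the same treated group, and their part in these target levels was not tested.

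**Figure D5:**
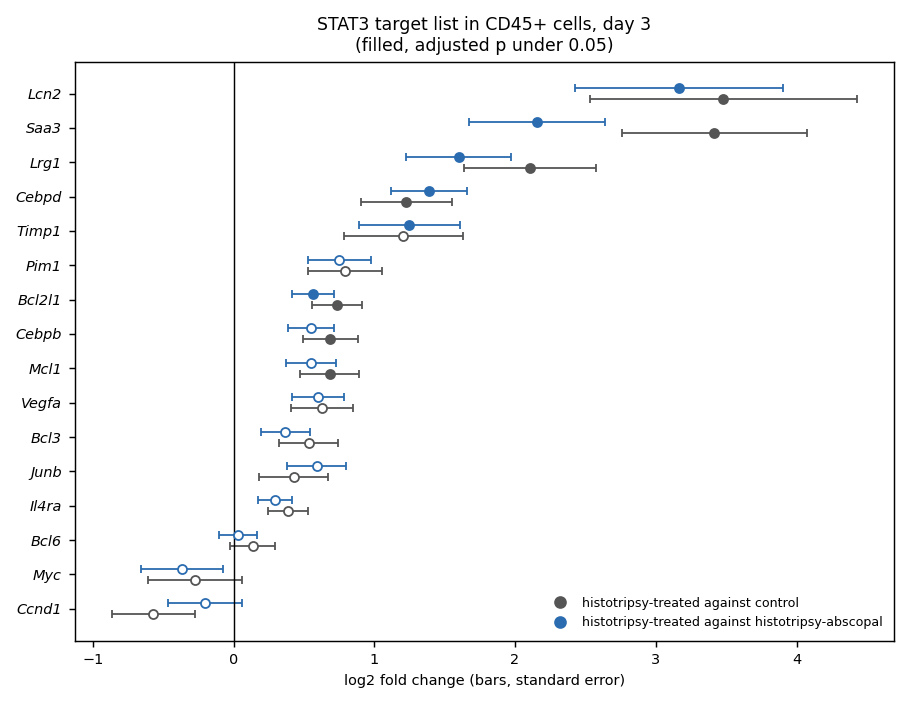
Log2 fold change (horizontal axis, bars are standard errors) of the 16 STAT3 targets in CD45+ cells on day 3, for treated against control and treated against abscopal tumors. Filled points passed an adjusted p under 0.05, 7 against control and 6 against abscopal tumors, and Lcn2 and Saa3 have the largest changes.

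The count of targets called depended on single libraries. Without treated replicate 3 it was 4 against control and 2 against abscopal tumors. Against control it was also 4 without treated replicate 2, 11 without treated replicate 5, 3 without control replicate 1 or 4 and 2 without control replicate 2 or 3, and against abscopal tumors it was 10 without treated replicate 4 or 5. In the other 10 treatment comparisons the only pathway gene called was Timp1, an inhibitor of metalloproteinases, in CD45- cells of abscopal against control tumors on day 7, 1 of 14 STAT3 targets tested. Its log2 fold change was 1.64 ± 0.33 (SE; edgeR adjusted p = 0.0282), and 0.95 (adjusted p = 0.709) without abscopal replicate 1, the library with the highest fibroblast sum of that group. The call was lost in all without 10 of 18 libraries, abscopal replicates 1 and 2 and control replicates 3, 4 and 6 to 11, and with DESeq2 (1.60, adjusted p = 0.0645). In CD45+ cells on day 7, 0 of the 29 pathway genes tested were called by edgeR in any comparison, with 0 or 1 at an unadjusted p under 0.05, and DESeq2 called 0 of all genes. Of all genes there, 2.68% to 7.4% were under that unadjusted p. The effect of ablation on CD45+ cells was lower on day 7 than on day 3 for 2 targets, Saa3 (-4.65 ± 0.93, SE; adjusted p = 0.00599) and Lcn2 (-4.14 ± 1.18; adjusted p = 0.0484), by an interaction test. The call of Saa3 was lost without 1 of 34 libraries, day 7 treated replicate 1 (-4.20, adjusted p = 0.0638), and that of Lcn2 without 22 of the 34 and with library totals (-3.82, adjusted p = 0.0643). On day 3 the effect was higher in CD45+ than in CD45- cells for 2 targets, Bcl2l1 (1.02 ± 0.25; adjusted p = 0.0241) and Vegfa, an angiogenic factor (1.06 ± 0.26; adjusted p = 0.0260), and both calls were lost with library totals (0.77 and 0.82).

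The genes most like some of the members over the libraries of a fraction were named as a description, by Pearson correlation of log2 CPM over both days. Over the 34 CD45+ libraries, Socs3 was most like Junb (r = 0.895), Gch1 (0.888) and Anxa1 (0.871) among 10152 genes, and Osm most like Zfp36 (0.826), Marcks (0.825) and Rap1b (0.802). Il6ra was most like Nfam1 (0.824), Asap1 (0.769) and Maml3 (0.763), and Il6 most like Gm14636 (0.700), Cxcl10 (0.642) and Ccdc71l (0.641). Over the 36 CD45- libraries, among 10729 genes, Socs3 was most like Zfp36 (0.785), Dusp1 (0.764) and Egr2 (0.726), and Osmr most like Csf1 (0.774), Oaf (0.759) and Lrp1 (0.759). Il6st was most like Ckap4 (0.728), Loxl2 (0.714) and Sfrp4 (0.711) in CD45- cells, with lower Spearman rho of 0.456, 0.480 and 0.386. The libraries share tables, days and sorts, so that these values describe likeness and test nothing. Zfp36, which encodes an mRNA-destabilizing protein induced early on stimulation, was among the 3 genes most like Socs3 in CD45- and most like Osm in CD45+ cells.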

How the data were processed

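The authors sorted CD45+ and CD45- cells, sequenced QuantSeq libraries, trimmed reads with Trim Galore 0.5.0, aligned them with STAR 2.6.0, collapsed molecular identifiers with Lexogen's tool 2.3.6 and used featureCounts to count reads over the genes of GRCm38. The deposited values are raw counts, in 4 tables of a fraction and a day each. Counts were tested here with edgeR 4.0.16 in R 4.3.3: its quasi-likelihood test followed TMM scaling and filterByExpr (at least 10 counts, 15 in total), p-values were adjusted by Benjamini-Hochberg with a threshold of 0.05, in 1 fit per table, and in joint fits of 2 tables for fractions and for interactions. The filter left 10921 and 10996 genes in CD45- and 10264 and 10817 in CD45+ cells on days 3 and 7. In simulated data, 99% and 99.5% of 200 genes changed by 2 on the log2 scale were recovered for treated against control tumors in CD45- and CD45+ cells on day 3. It was 94% between the fractions in control tumors on day 3 and 95% for the interaction of day in CD45+ treated tumors. The changed genes were drawn only from genes with higher mean counts than Il6 and Osmr in CD45- cells, so the recovery does not cover these 2. Intervals of summed counts are exact and cover counting error only. Replicates follow the sample labels, which name no animals, so p-values measure only the spread between these samples, which may be technical. Of 208 pairs of libraries within a group, none differed by less than the sampling noise (smallest chi-square per degree of freedom 1.99). Left out were 2 lines without a gene name, and 0 columns had no sample. The members, the pathway and marker lists and the comparisons were chosen with earlier results of these data known. All 8 members are named, with the pathway genes called (at most 6 per comparison; Lifr and Mcl1 were added after their values were seen) and the 3 genes most like a member in a fraction, which are not reported here for every member. Alternatives were DESeq2 1.42.0, library totals, no filter on low counts, only the groups compared, the replicate block and each library left out.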

Additional observations from a re-analysis of the deposited data

Results flagged for a closer look

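Of 69 sets of values of a member in a group of 4 to 10 libraries, 7 held a library whose gap to its nearest neighbour was large against the range of the group (Dixon's criterion at 95%). Chance gives about 1 in 20 for continuous values, but a single non-zero library among zeros always meets the criterion. That was so for the flags below of Il6, of Osm and of Lif in CD45- abscopal replicate 5, so the rate does not apply to them. Socs3 in CD45- cells of abscopal tumors on day 7 was at 56.4 CPM in replicate 4, against 34.2 to 35.1 CPM in the other 3. Lif in CD45+ cells of abscopal tumors on day 3 was at 4.72 CPM in replicate 4, from 9 counts, against 0.446 to 2.14 CPM. The other 5 rest on 1 to 3 counts. They are Il6 at 1.46 CPM in CD45- control replicate 2 on day 3, Lif at 1.26 CPM in CD45- treated replicate 3 and at 0.347 CPM in CD45- abscopal replicate 5 on day 3, and Osm at 0.403 CPM in CD45- control replicate 3 on day 3 and at 0.983 CPM in CD45- abscopal replicate 1 on day 7.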

How the results depend on the processing

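Of 782 counts of members or STAT3 targets called under an alternative, 762 stayed within 1.5 times the reported count. Of 2519 single-gene values 104 lost their call, 19 gained one and 1 changed direction. The last was Socs3 in CD45- cells on day 7, treated against control, which was -0.30 without treated replicate 3 and up to 0.59 without another library. With no filter on low counts, 1 member (Il6) was called in CD45- cells on day 3 for treated against control, 3 (Il6, Socs3 and Il6st) for treated against abscopal, 1 (Il6, 2.79, adjusted p = 0.0428) on day 7 for treated against control, 1 (Socs3) for abscopal against control, and 1 (Il6, -3.85, adjusted p = 0.00241) for the interaction of fraction and treatment on day 3. In that setting 312 and 451 of all 28941 genes were called in these day 3 comparisons, in the same order. On day 7 they were 165 and 398 of 28569, and in the interaction 349 of 34177. Leaving out 1 library gave 0 to 1 members for treated against abscopal tumors in CD45+ cells on day 3. The STAT3 target alternatives were chosen after the data were seen: against control 4 were called with library totals and 3 in a fit of only the groups compared, with 2 to 11 over left-out libraries, and against abscopal tumors 10 with DESeq2, with 2 to 10 over left-out libraries. Leaving out libraries from the ratios of summed Il6 counts was also chosen after the data were seen, and it reversed 1 of them, day 7 treated against control in CD45- cells (0.421 without treated replicate 3). Replicate numbers are shared between groups, and the labels do not say whether they mark the same mouse. Of 83 same-numbered pairs of libraries in 18 sets, 34 had correlated deviations over 0.1, and in 0 sets did all. For treated and abscopal CD45- libraries on day 3, the median correlation was 0.169 in same-numbered and -0.0455 in other pairs. On day 7 these medians were -0.187 and 0.0903. Such values cannot decide whether the numbers mark pairs. With the replicate block 1 member was called for treated against control in CD45+ cells on day 3 (Il6ra, 0.70, adjusted p = 0.0459), and it changed no other count of members. Among the targets named, the block gave Timp1 in CD45- cells on day 7, abscopal against control, 1.14 (adjusted p = 0.608), Bcl2l1 in CD45+ cells on day 3, treated against abscopal, 0.53 (adjusted p = 0.0641) and the interaction of day for Lcn2 -3.24 (adjusted p = 0.273). Counts over all genes moved more. In CD45- cells on day 3, 10 genes called for treated against control became 49 with DESeq2, 312 with no filter, 26 with the block and 2 with only these groups, and 16 for treated against abscopal became 138, 451, 117 and 11, and 25 with library totals (20 higher and 5 lower, from 10 and 6). On day 7, 32 for abscopal against control became 11, 398, 0 and 62, in the same order. In CD45+ cells on day 3, 801 became 1244 with no filter, 1256 with the block and 451 with only these groups, and 558 became 1022 with no filter and 365 with only these groups, with 345 higher and 89 lower under library totals (from 500 and 58). Comparisons and interactions with 0 calls gave 8 to 165 with no filter, 0 to 13 with DESeq2, 0 to 2 with the block and 0 to 1 with library totals. The interaction of fraction and treatment on day 3 went from 237 to 411 with DESeq2 and 150 with the block, that of day and treatment in CD45+ cells from 304 to 628 with no filter and 25 with the block, and that of day and abscopal group in CD45- cells from 1 to 6 with DESeq2, 39 with no filter and 0 with library totals or the block. The cause of these changes was not tested. Depth limits Lif and Osm in CD45- cells, where most libraries have no count, and Il6 there at 48 counts at most.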
